A study of Homo sapiens with 9 samples.

Results

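The genes described here are 39 genes of the aminoacyl-tRNA synthetase system, chosen by gene symbol: 20 genes of the cytosolic enzymes, 16 of the mitochondrial enzymes (symbols ending in 2) and 3 scaffold proteins, AIMP1, AIMP2 and EEF1E1. All 39 were among the 57820 named genes of the tables and passed the filter on low counts in every comparison. RNA-seq was performed in MOLM13, an established human AML cell line with a rearranged MLL gene, in 9 libraries. The groups compared were RBM5 OE (MOLM13 given a lentiviral RBM5 cDNA, RBM5-P2A-venus), RBM5 KO (MOLM13 with Cas9 and RBM5-sg1, a guide against a coding exon) and CTRL (MOLM13 with the non-targeting guide NT). Each group had 3 biological replicates, and the labels give no drug for any of them. By the study's methods, Cas9 lines were selected with blasticidin and guide-transduced cells with puromycin. RBM5 KO rests on 1 guide, and RBM5 OE was set against the guide control rather than a vector control, so effects of the vector or of selection and an effect of RBM5 cannot be told apart.

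Aminoacyl-tRNA synthetases join each amino acid to its tRNA, the step that makes the genetic code readable by the ribosome. Human cells keep separate enzymes for the cytosol and for the mitochondrion, all encoded in the nucleus, while GARS and KARS each encode both forms and QARS has no mitochondrial counterpart in this list. Several cytosolic enzymes assemble with AIMP1, AIMP2 and EEF1E1 into the multisynthetase complex, and the others act free. In mammals, the transcription factor ATF4 induces many cytosolic synthetase genes in the integrated stress response, in which uncharged tRNA activates the kinase GCN2 (EIF2AK4), and interferon gamma induces WARS in many human cells.

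Total counts per library were 25969189 to 27826523 in RBM5 OE, 27304730 to 27871975 in RBM5 KO and 25522936 to 26395681 in CTRL. RBM5 itself had 380, 415 and 414 CPM (counts scaled by TMM and library size) in RBM5 OE, 70.3, 74.0 and 79.0 CPM in RBM5 KO and 122, 117 and 113 CPM in CTRL, with no overlap between groups, so the labels hold. All 8 myeloid markers exceeded 1 CPM in every library, and their summed level was 2407 to 2446 CPM in RBM5 OE, 3761 to 4269 CPM in RBM5 KO and 3167 to 3410 CPM in CTRL. The order of the sums follows LYZ, lysozyme, which averaged 535 CPM in RBM5 OE, 2210 CPM in RBM5 KO and 1311 CPM in CTRL. Without LYZ, a choice made after its values were seen, the other 7 markers summed to 1874 to 1903 CPM in RBM5 OE, 1643 to 1938 CPM in RBM5 KO and 1917 to 2074 CPM in CTRL. Erythroid markers summed to at most 0.273 CPM, B and T cell markers to at most 3.10 CPM and fibroblast and epithelial markers to at most 4.90 CPM in any library. The part of these marker levels in the results below was not tested. RBM5 KO replicate 1 and CTRL replicate 3 stood apart from their groups. RBM5 KO replicate 1 was the highest of its group for 17 of 20 cytosolic, 13 of 16 mitochondrial and 3 of 3 scaffold genes (39.9% of all genes), and CTRL replicate 3 was the lowest of its group for 33 of 37 other ATF4 targets (35.8% of all genes). Among the members, CTRL replicate 3 was the lowest of its group for 8 and the highest for 6 of 20 cytosolic genes, and the highest for 3 of 3 scaffold genes.

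The core of the C/EBP-ATF response element, which ATF4 dimers bind, was searched for as TGATGNAA on both strands in RefSeq promoters (GRCh38.p14, 250 bases before to 50 after each start). Promoters were matched for 33 of the 39 genes, all but DARS, LARS, VARS, YARS, AARS2 and VARS2. It was found in 7 of 16 cytosolic genes (43.8%), 1 of 14 mitochondrial genes (YARS2, 7.14%) and 0 of 3 scaffold genes, against 4.46% of 27305 RefSeq genes. The 7 cytosolic windows are shown because these genes recur in the comparisons, with the matched letters in capitals and each window read in the direction of its gene. TTGCATCA is the same element read from the opposite strand.
AARS, chr16:70289675-70289704, minus strand: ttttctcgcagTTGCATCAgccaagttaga
CARS, chr11:3057407-3057436, minus strand: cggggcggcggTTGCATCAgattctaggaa
GARS, chr7:30594834-30594863, plus strand: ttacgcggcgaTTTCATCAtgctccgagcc
IARS, chr9:92293692-92293721, minus strand: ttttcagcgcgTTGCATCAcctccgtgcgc
MARS, chr12:57488053-57488082, plus strand: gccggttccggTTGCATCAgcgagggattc
NARS, chr18:57621804-57621833, minus strand: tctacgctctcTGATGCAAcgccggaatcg
TARS, chr5:33440956-33440985, plus strand: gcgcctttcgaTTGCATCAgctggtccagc
Of the 7 windows 6 share the letters TTGCATCA or their reverse complement, and GARS differs. The element begins 187 bases before the start site in AARS, 33 bases before it in GARS, 13 in IARS, 4 in MARS and 2 in CARS, and at base 3 in TARS and base 15 in NARS. A match describes letters only and does not show that a factor binds there.

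The first comparison asked how the synthetase genes differ when RBM5 is targeted. In RBM5 KO, 9 of 20 cytosolic genes fell and 0 rose by edgeR's quasi-likelihood test (threshold 0.05 after Benjamini-Hochberg adjustment over 14218 genes), against 1.67% of all genes that fell, 0.837% that rose and 2.51% called in either direction. The 9 were WARS, GARS, CARS, AARS, SARS, MARS, YARS, IARS and TARS. The median log2 fold change over the 20 was −0.40, with a range of −1.41 to 0.15, beside 0.011 over all genes, and 13 of the 20 lay lower in all RBM5 KO libraries than in any CTRL library (12.1% of all genes did). In bulk RNA, less of a transcript per cell and fewer cells that make it cannot be told apart.

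**Figure D1:**
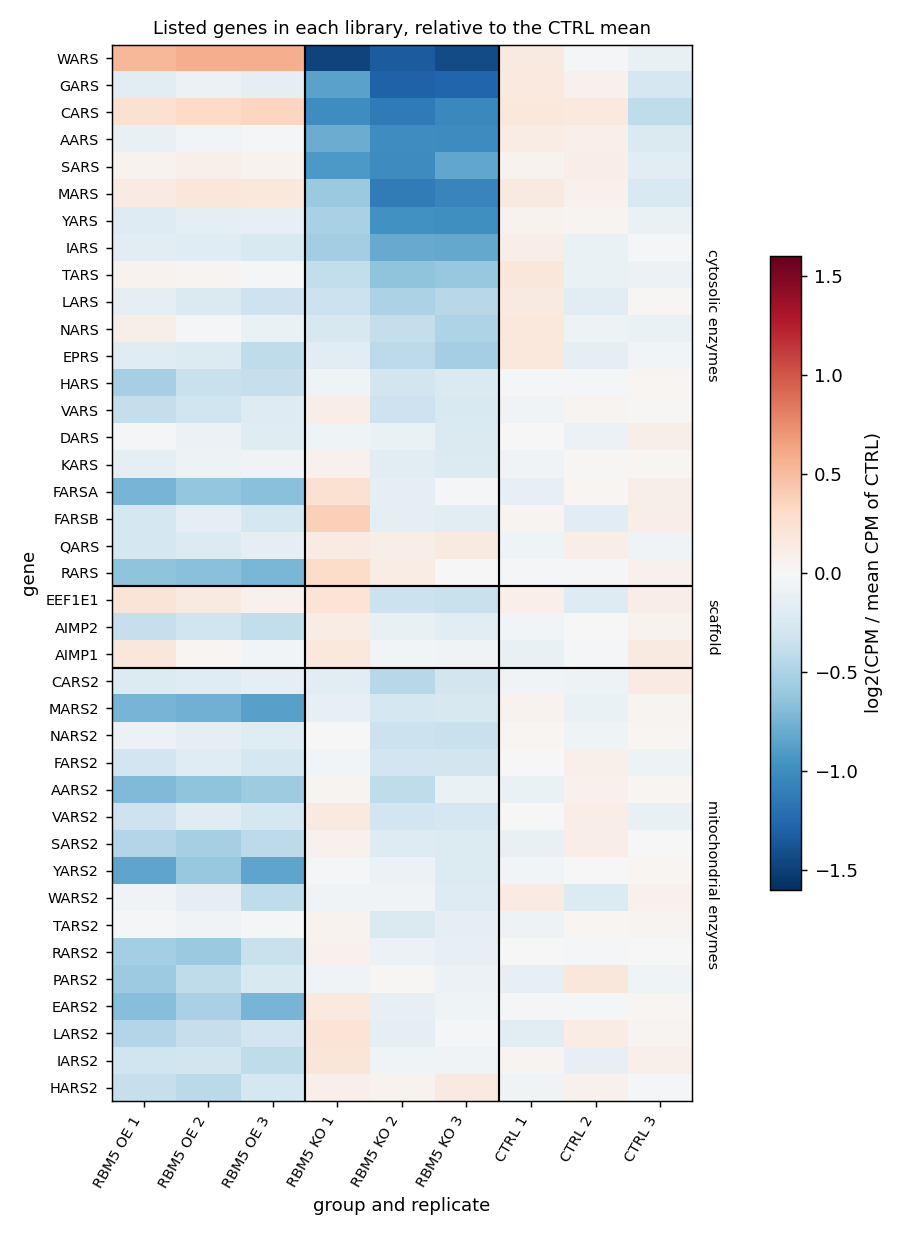
Level of each of the 39 genes in each library as log2(CPM / mean CPM of CTRL), with RBM5 OE, RBM5 KO and CTRL from left to right and cytosolic, scaffold and mitochondrial genes from top to bottom. The upper cytosolic rows are blue in the 3 RBM5 KO libraries, most of all WARS, while many mitochondrial rows are blue in the 3 RBM5 OE libraries.

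WARS, the tryptophan enzyme, lies on chromosome 14 of GRCh37 (100800127 to 100843142, minus strand). It had 143, 159 and 147 CPM in RBM5 KO and 439, 388 and 368 CPM in CTRL. The groups were far apart, and no other gene of the 14218 had a smaller p (log2 fold change −1.41, standard error 0.094, adjusted p = 0.00109 in the edgeR fit). That is 2.65-fold lower in RBM5 KO. SARS, the serine enzyme, had 78.2, 73.6 and 83.0 CPM in RBM5 KO and 153, 159 and 130 CPM in CTRL, again without overlap (−0.91, standard error 0.100, adjusted p = 0.00518). WARS and SARS were the only members called in RBM5 KO under each of the 17 alternatives tried.

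GARS, which charges glycine in both compartments, had 181, 134 and 136 CPM in RBM5 KO and 367, 346 and 274 CPM in CTRL (−1.12, standard error 0.148, adjusted p = 0.00706). CARS, the cysteine enzyme, had 62.9, 57.1 and 61.3 CPM in RBM5 KO and 141, 140 and 94.9 CPM in CTRL (−1.05, standard error 0.148, adjusted p = 0.00940). In both genes CTRL replicate 3 was the lowest CTRL library, and it still lay above every RBM5 KO library. AARS, the alanine enzyme, had 257, 224 and 222 CPM in RBM5 KO and 483, 472 and 380 CPM in CTRL (−0.92, standard error 0.113, adjusted p = 0.00601). MARS, the methionine enzyme, had 181, 126 and 130 CPM in RBM5 KO and 299, 286 and 230 CPM in CTRL (−0.90, standard error 0.154, adjusted p = 0.0208). RBM5 KO replicate 1 was the highest RBM5 KO library in GARS, CARS, AARS and MARS, and the groups did not overlap in any of them.

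The tyrosine enzyme YARS had 242, 178 and 176 CPM in RBM5 KO and 360, 359 and 322 CPM in CTRL (−0.80, standard error 0.129, adjusted p = 0.0158). The isoleucine enzyme IARS had 237, 199 and 197 CPM in RBM5 KO and 376, 324 and 345 CPM in CTRL (−0.72, standard error 0.101, adjusted p = 0.00940). Neither overlapped between groups. The threonine enzyme TARS was nearest to the threshold, with 196, 165 and 168 CPM in RBM5 KO and 291, 238 and 240 CPM in CTRL (−0.54, standard error 0.110, adjusted p = 0.0424). It was called under 8 of 17 alternatives. Leaving out CTRL replicate 1 kept 2 calls (SARS and WARS), CTRL replicate 2 kept 4 (AARS, IARS, SARS and WARS) and RBM5 KO replicate 3 kept 5 (AARS, CARS, GARS, SARS and WARS). Without both libraries that stood apart, 13 cytosolic genes were called.

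The 11 cytosolic genes not called in RBM5 KO had log2 fold changes of −0.43 for LARS, −0.37 for NARS and −0.36 for EPRS, and between −0.19 and 0.15 for HARS, VARS, DARS, KARS, FARSA, FARSB, QARS and RARS. Of the 8 enzymes of the multisynthetase complex 2 fell (IARS and MARS, median of the 8 −0.25), and of the 12 free genes 7 fell (median −0.67). By structural class, 5 of 9 class I genes (median −0.72) and 4 of 10 class II genes (median −0.28) fell. EPRS, which joins an enzyme of each class in 1 chain, was left out of both. Of the 7 cytosolic genes with the promoter element 6 fell (median −0.90, NARS the exception), beside 1.67% of all genes. YARS2, the mitochondrial gene with the element, was not called (−0.11). Of the 9 cytosolic genes whose matched promoters lack it 2 fell, SARS and WARS (median −0.10). Of the 4 without a matched promoter 1 fell, YARS (median −0.28). These splits are descriptions and were not tested against each other.

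**Figure D2:**
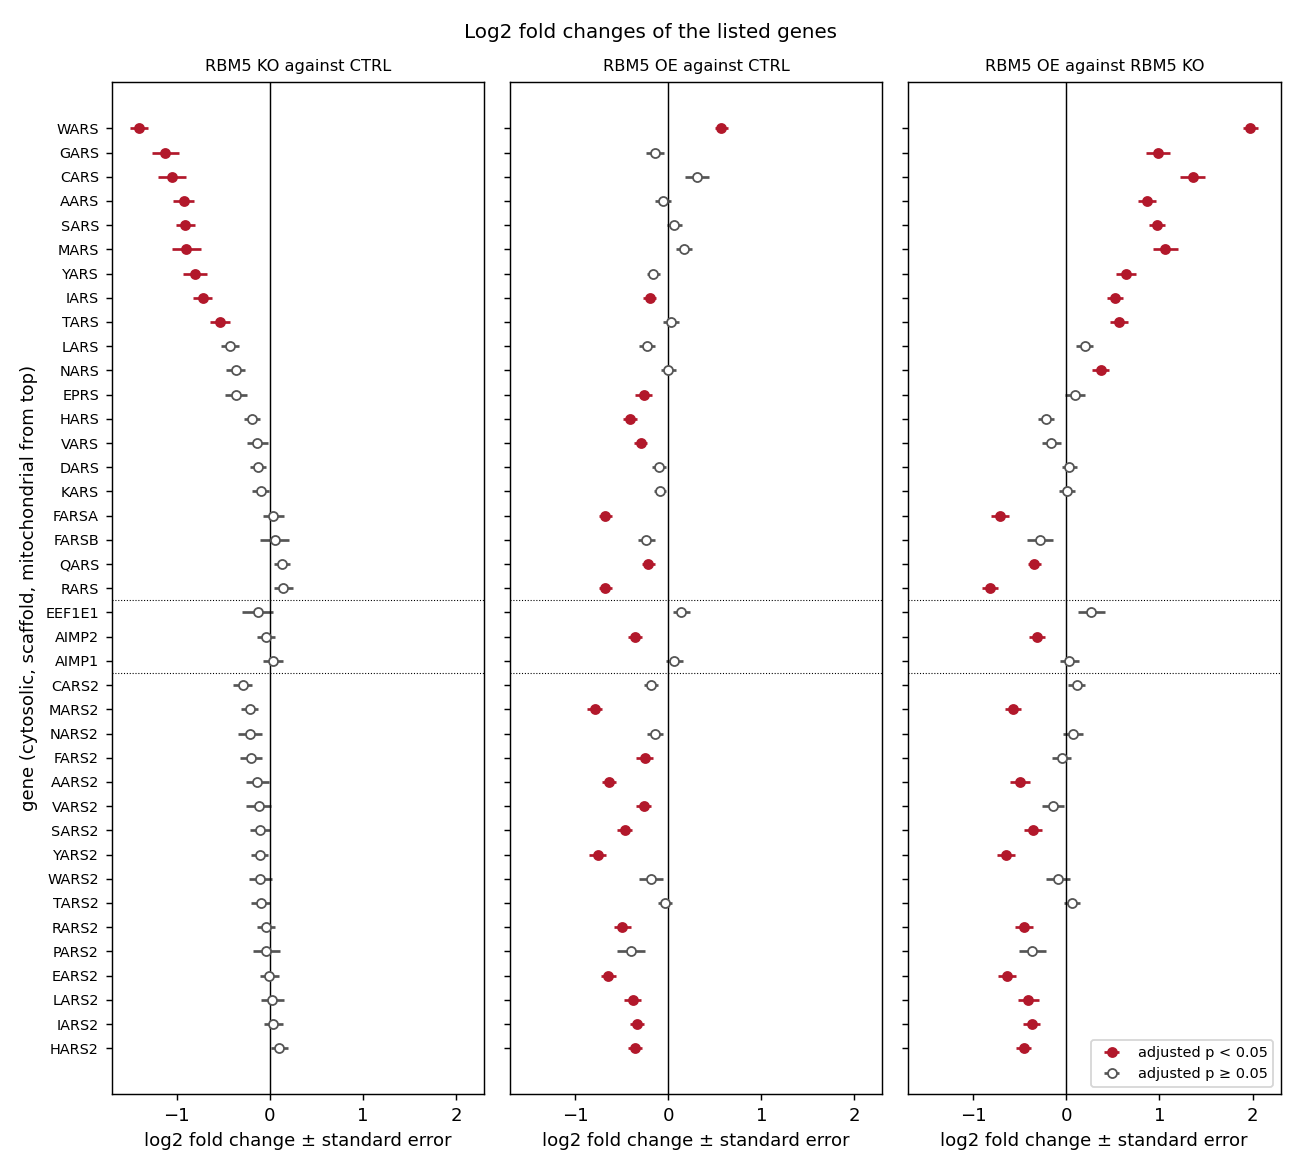
Log2 fold change ± standard error of the 39 genes in RBM5 KO against CTRL, RBM5 OE against CTRL and RBM5 OE against RBM5 KO, from edgeR fits. Filled points had an adjusted p under 0.05. In the left panel 9 cytosolic genes are filled and 0 mitochondrial ones, beside 2.51% of all genes called in that comparison. In the middle panel all 16 mitochondrial genes lie left of 0.

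Mitochondrial synthetases and scaffold genes had no member called in RBM5 KO. By edgeR's quasi-likelihood test 0 of 16 mitochondrial genes were called, which is near the 2.51% of all genes called in either direction. An unadjusted p under 0.05 was reached by 2 of them (CARS2 and MARS2), and DESeq2 and limma-voom each called 0. The median log2 fold change was −0.11 and the range −0.29 (CARS2) to 0.10 (HARS2). Lower values in all RBM5 KO libraries than in any CTRL library were seen for 2 of the 16, near the 12.1% of all genes. Without both libraries that stood apart, 2 were called. Among the scaffold genes the log2 fold changes were 0.03 for AIMP1, −0.04 for AIMP2 and −0.13 for EEF1E1, and the groups overlapped in each.

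The second comparison asked how the genes differ when RBM5 is overexpressed. In RBM5 OE, 11 of 16 mitochondrial genes fell and 0 rose (edgeR's quasi-likelihood test, adjusted over 14370 genes), against 20.2% of all genes that fell, 19.8% that rose and 40.1% called in either direction. All 16 had a negative log2 fold change (TARS2, at −0.04, stood at 0.0019 with library totals as the scale and at 0.24 by limma on log2(TPM + 1)). The median was −0.37 beside 0.013 over all genes, and 14 of the 16 lay lower in every RBM5 OE library than in any CTRL library (25.8% of all genes did). CARS2, NARS2, PARS2, TARS2 and WARS2 were not called. CTRL serves both this comparison and the one with RBM5 KO, so the 2 sets of fold changes are not independent.

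MARS2, the mitochondrial methionine enzyme, had 28.2, 27.6 and 25.9 CPM in RBM5 OE and 49.1, 43.9 and 48.6 CPM in CTRL (log2 fold change −0.79, standard error 0.079, adjusted p = 2.56e-05). YARS2, the mitochondrial tyrosine enzyme, had 17.5, 20.5 and 17.4 CPM in RBM5 OE and 30.2, 31.5 and 32.1 CPM in CTRL (−0.76, standard error 0.089, adjusted p = 7.56e-05). Both groups were narrow and did not overlap. EARS2, whose product charges mitochondrial glutamate, had 25.7, 28.8 and 24.6 CPM in RBM5 OE and 40.8, 40.9 and 42.1 CPM in CTRL (−0.64, standard error 0.080, adjusted p = 0.00011). AARS2, the mitochondrial alanine enzyme, had 38.1, 39.6 and 42.0 CPM in RBM5 OE and 57.5, 65.2 and 63.6 CPM in CTRL (−0.63, standard error 0.078, adjusted p = 9.65e-05). Every RBM5 OE library was below every CTRL library in both.

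SARS2 had 48.5, 46.4 and 50.4 CPM in RBM5 OE and 61.9, 72.4 and 67.4 CPM in CTRL (−0.47, standard error 0.078, adjusted p = 0.00072), without overlap. The remaining calls had log2 fold changes of −0.49 for RARS2, −0.38 for LARS2, −0.36 for HARS2, −0.33 for IARS2, −0.26 for VARS2 and −0.25 for FARS2, whose adjusted p of 0.0473 was nearest to the threshold and which was called under 3 of 16 alternatives. AARS2, EARS2, LARS2, MARS2, RARS2, SARS2 and YARS2 were called under all 16. YARS2 overlaps DNM1L on the opposite strand over 18161 bases, and DNM1L averaged 58.4 CPM in RBM5 OE and 69.6 CPM in CTRL. HARS and HARS2 start 107 bases apart on opposite strands of chromosome 5 (GRCh37). EARS2 shares 1242 bases with GGA2 and HARS2 626 bases with ZMAT2, each on the same strand. Over the 9 libraries GGA2 averaged 108 TPM and EARS2 24.6 TPM. The counts carry no strand, so reads that fall in shared exons cannot be told apart. The part of these neighbours in the counts was not tested.

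Of the 20 cytosolic genes 7 fell and 1 rose in RBM5 OE, beside 20.2% of all genes that fell and 19.8% that rose. The 8 calls in either direction are 40% of the 20, near the 40.1% of all genes called. WARS rose, with 576, 597 and 596 CPM in RBM5 OE and 439, 388 and 368 CPM in CTRL, and the lowest RBM5 OE library was above the highest CTRL library (0.57, standard error 0.072, adjusted p = 0.000115). It was the only 1 of the 39 that rose in RBM5 OE in the edgeR fit, although CARS (0.31, adjusted p = 0.0692) was called as well by DESeq2 and with library totals as the scale. WARS was called under all 16 alternatives. The 7 that fell were RARS, FARSA, HARS, VARS, EPRS, QARS and IARS. The median of the 20 was −0.15 with a range of −0.67 to 0.57.

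RARS, the arginine enzyme, had 39.8, 38.9 and 37.4 CPM in RBM5 OE and 60.7, 60.4 and 64.8 CPM in CTRL (−0.67, standard error 0.071, adjusted p = 3.47e-05). FARSA, the catalytic subunit of the phenylalanine enzyme, had 171, 186 and 179 CPM in RBM5 OE and 262, 291 and 304 CPM in CTRL (−0.67, standard error 0.072, adjusted p = 4.03e-05). Both were separated without overlap. FARSB, the other subunit of the same enzyme, had 41.1, 45.1 and 41.1 CPM in RBM5 OE and 51.6, 44.6 and 54.0 CPM in CTRL, with overlap (−0.23, standard error 0.087, adjusted p = 0.0509). The histidine enzyme HARS had 49.2, 55.6 and 55.0 CPM in RBM5 OE and 69.9, 70.3 and 72.9 CPM in CTRL, and the groups did not overlap (−0.41, standard error 0.073, adjusted p = 0.00109).

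VARS (−0.30), EPRS (−0.26), QARS (−0.21) and IARS (−0.20) had smaller changes. EPRS and IARS were called under 9 and 8 of 16 alternatives, QARS under 13 and VARS under 16. The cytosolic calls were 7 lower and 1 higher under TMM, and 5 lower and 2 higher when libraries were scaled by their totals alone. Without RBM5 OE replicate 2, 5 cytosolic genes were called. IARS was the only 1 of the 39 called lower in both RBM5 KO and RBM5 OE, and WARS the only 1 called lower in RBM5 KO and higher in RBM5 OE.

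Complex members fell in 4 of 8 cases in RBM5 OE (EPRS, IARS, QARS and RARS) and free genes in 3 of 12 (FARSA, HARS and VARS), beside 20.2% of all genes, and the 2 shares were not tested against each other. Of the scaffold genes AIMP2 fell, with 36.1 to 38.1 CPM in RBM5 OE and 46.1, 47.3 and 49.5 CPM in CTRL (−0.36, standard error 0.071, adjusted p = 0.00208). Its groups did not overlap. AIMP1 (0.07) and EEF1E1 (0.14) were not called. AIMP2 shares 1588 bases with EIF2AK1 on the opposite strand.

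**Figure D3:**
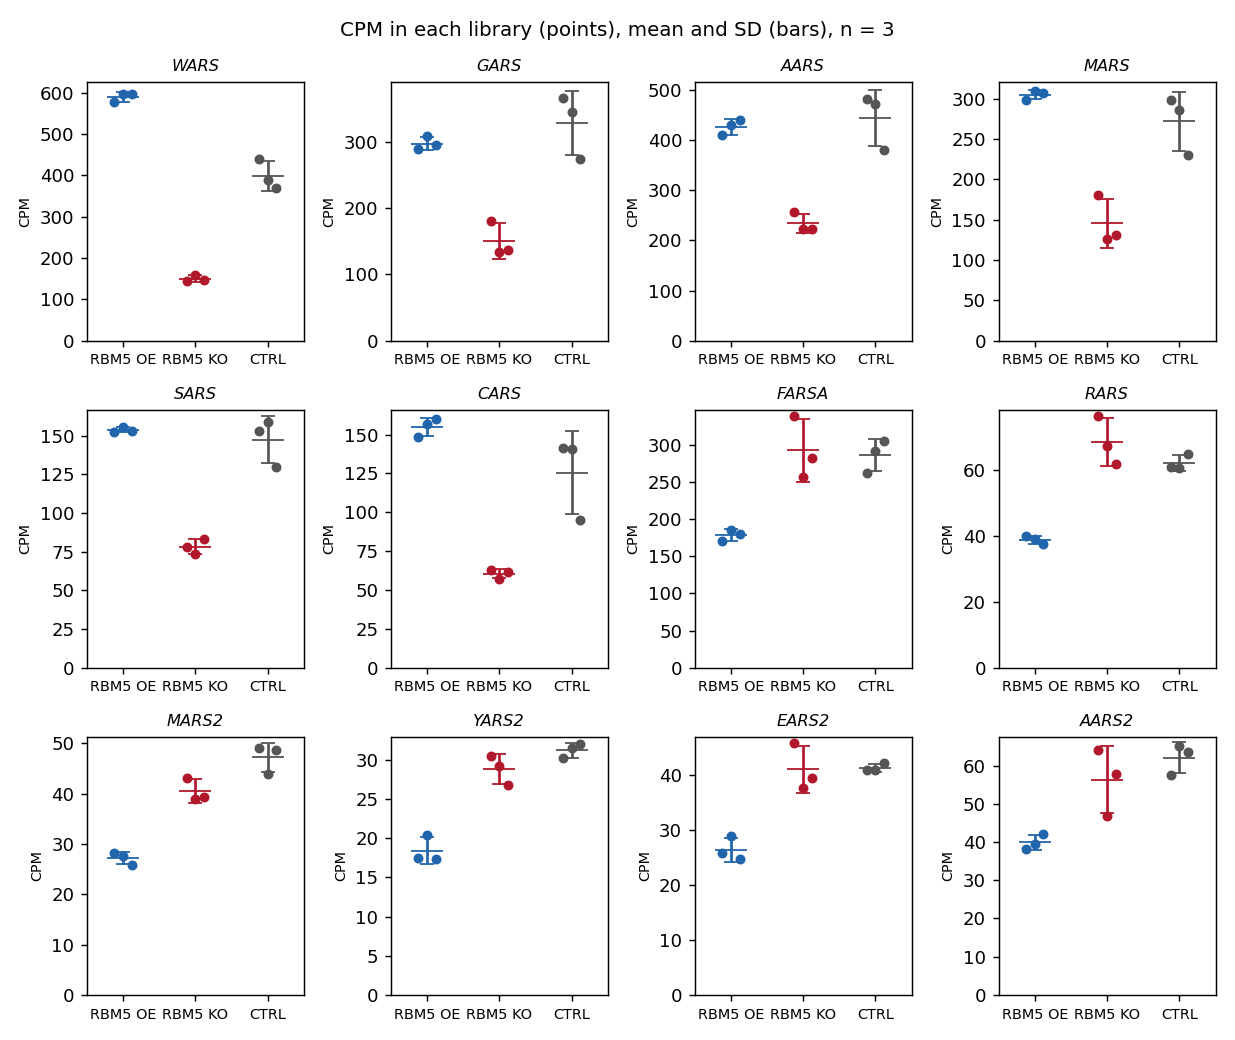
CPM of 12 of the genes in each library (points) with mean and SD (bars, n = 3 per group), RBM5 OE, RBM5 KO and CTRL from left to right in each panel. WARS is ordered RBM5 OE, CTRL, RBM5 KO from high to low, GARS, AARS, MARS, SARS and CARS are low in RBM5 KO, and FARSA, RARS, MARS2, YARS2, EARS2 and AARS2 are low in RBM5 OE.

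The direct contrast of RBM5 OE with RBM5 KO, fitted on all 9 libraries, does not use CTRL as its reference. In it 10 of 20 cytosolic genes were higher and 3 lower in RBM5 OE (adjusted over 14754 genes), against 19.5% of all genes higher, 20.6% lower and 40.1% called in either direction. The 10 were WARS, CARS, MARS, GARS, SARS, AARS, YARS, TARS, IARS and NARS, and the 3 were RARS, FARSA and QARS. WARS differed by 1.98 (standard error 0.080, adjusted p = 7.52e-08), the third smallest p of all genes. CARS differed by 1.36, with 148, 157 and 160 CPM in RBM5 OE and 62.9, 57.1 and 61.3 CPM in RBM5 KO (standard error 0.131, adjusted p = 1.77e-05). All 13 were called under each of the 20 alternatives.

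NARS, the asparagine enzyme, was called in this contrast and in neither comparison with CTRL, with 348, 321 and 302 CPM in RBM5 OE and 272, 250 and 230 CPM in RBM5 KO, without overlap (0.37, standard error 0.093, adjusted p = 0.00828). All 7 cytosolic genes with the promoter element were called higher in RBM5 OE than in RBM5 KO, beside 19.5% of all genes. Of the 9 whose matched promoters lack it 2 were higher (SARS and WARS) and 3 lower (FARSA, QARS and RARS). Of the 4 without a matched promoter 1 was higher, YARS. YARS2, the mitochondrial gene with the element, was lower (−0.65, adjusted p = 0.000237 in the edgeR fit). Of the mitochondrial genes 9 of 16 were lower in RBM5 OE and 0 higher, beside 20.6% of all genes lower, 19.5% higher and 40.1% called in either direction. Their median was −0.37, and the lowest adjusted p was that of MARS2 (−0.57, standard error 0.082, adjusted p = 0.00023). AIMP2 was lower as well (−0.32, standard error 0.087, adjusted p = 0.0122).

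DDIT3, an ATF4 target that overlaps the end of MARS on the opposite strand, had a mean of 32.0 CPM in RBM5 OE, 7.16 CPM in RBM5 KO and 7.39 CPM in CTRL, while MARS lay at 126 to 309 CPM. ARHGAP9, which overlaps MARS over 13370 bases on the opposite strand, had 86.6, 79.8 and 82.9 CPM in RBM5 OE, RBM5 KO and CTRL. The part of such neighbours in the MARS counts was not tested.

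Levels were compared between genes in TPM, which divides by transcript length. In CTRL, QARS (391 to 418 TPM) and WARS (311 to 380 TPM) were the highest cytosolic genes, and FARSB (24.8 to 31.3 TPM) and RARS (39.6 to 45.7 TPM) the lowest. Among mitochondrial genes CARS2 (59.5 to 72.8 TPM) and SARS2 (52.4 to 65.5 TPM) were the highest with overlapping ranges, and PARS2, the proline enzyme, was the lowest at 3.59 to 4.24 TPM. WARS was the highest of all 39 genes in RBM5 OE at 483 to 539 TPM, with QARS next at 349.9 to 372 TPM. In RBM5 KO, WARS stood at 121 to 138 TPM, below QARS at 440 to 469 TPM, FARSA at 221 to 299 TPM and VARS at 141 to 199 TPM.

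The 20 cytosolic genes summed to 2922 to 3059 TPM in RBM5 OE, 2086 to 2422 TPM in RBM5 KO and 2903 to 3212 TPM in CTRL, so RBM5 KO lay below both other groups. Without WARS, a choice made after its values were seen, the other 19 summed to 2440 to 2533 TPM in RBM5 OE, 1948 to 2301 TPM in RBM5 KO and 2592 to 2832 TPM in CTRL, so RBM5 OE then lay below every CTRL library. The 16 mitochondrial genes summed to 309.9 to 310.4 TPM in RBM5 OE, 328 to 393 TPM in RBM5 KO and 361 to 402 TPM in CTRL. The cytosolic sum over the mitochondrial sum was 9.42 to 9.87 in RBM5 OE, 6.17 to 6.37 in RBM5 KO and 7.22 to 8.66 in CTRL, and the 3 groups did not overlap. Without WARS it was 7.87 to 8.17 in RBM5 OE, 5.85 to 5.95 in RBM5 KO and 6.45 to 7.63 in CTRL, again with no overlap. As a mean of log2(TPM + 1), the cytosolic genes stood above the mitochondrial ones by 2.84 ± 0.025 in RBM5 OE, 2.20 ± 0.038 in RBM5 KO and 2.61 ± 0.10 in CTRL (SD, n = 3 each). These are descriptions of the chosen members, and no test was made.

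For 14 amino acids the cytosolic and mitochondrial genes can be paired. The fold change of the cytosolic gene was the more negative of the pair in 12 of 14 in RBM5 KO, and in 4 of 14 in RBM5 OE, both against CTRL. For tryptophan, log2(WARS/WARS2) in TPM was 5.95, 5.98 and 5.89 in RBM5 OE, 3.56, 3.90 and 3.49 in RBM5 KO and 5.09, 5.50 and 4.69 in CTRL, so that the groups were fully separated. For methionine, log2(MARS/MARS2) was 4.16, 4.23 and 4.22 in RBM5 OE, 2.76, 2.35 and 2.45 in RBM5 KO and 3.27, 3.39 and 2.94 in CTRL, again separated.

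For serine the genes were near parity in RBM5 KO. Log2(SARS/SARS2) was 1.43, 1.22 and 1.44 in RBM5 OE, −0.28, 0.052 and 0.10 in RBM5 KO and 1.18, 0.88 and 0.60 in CTRL. For cysteine, log2(CARS/CARS2) was 0.35, 0.65 and 0.49 in RBM5 OE, −0.68, −0.58 and −0.54 in RBM5 KO and 0.30, 0.26 and −0.51 in CTRL. CARS2 thus exceeded CARS in all RBM5 KO libraries and in CTRL replicate 3, and in no RBM5 OE library. Differences were smaller for arginine and valine, with log2(RARS/RARS2) averaging 1.21 ± 0.13 in RBM5 OE, 1.54 ± 0.096 in RBM5 KO and 1.36 ± 0.077 in CTRL, and log2(VARS/VARS2) 3.32 ± 0.13, 3.31 ± 0.11 and 3.33 ± 0.043 in the same groups (SD, n = 3 each).

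**Figure D4:**
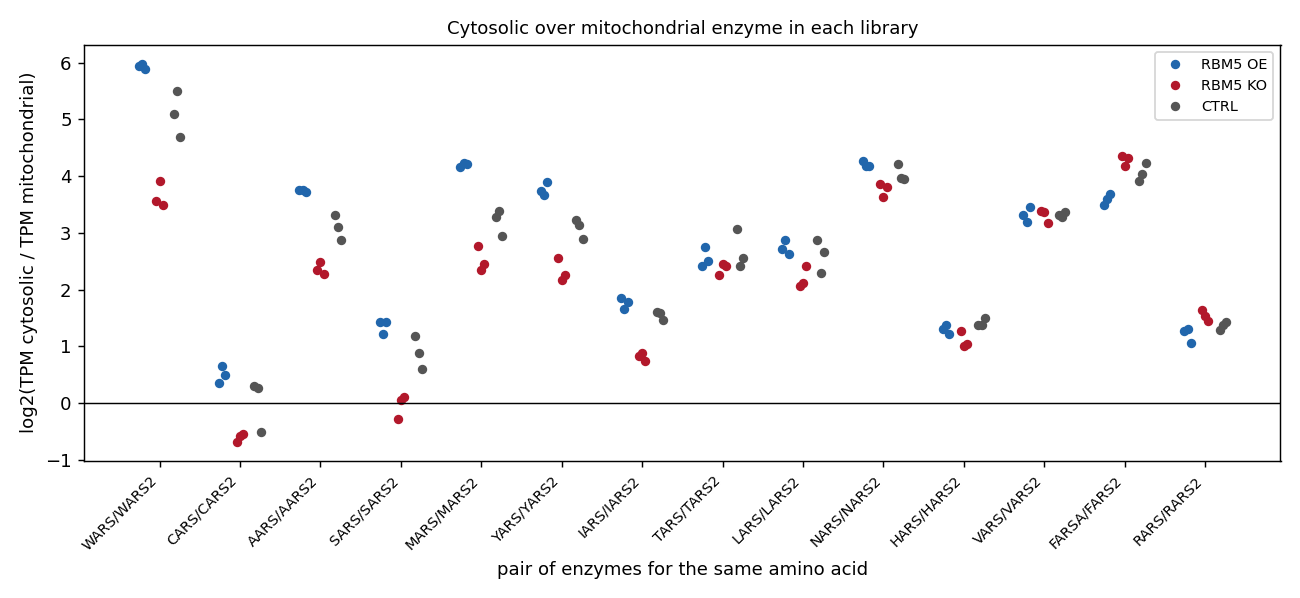
Log2 ratio of cytosolic to mitochondrial TPM for 14 amino acids, 1 point per library, with RBM5 OE (blue), RBM5 KO (red) and CTRL (grey) from left to right in each pair. The ratio is lowest in RBM5 KO and highest in RBM5 OE for WARS, MARS, SARS, AARS, YARS and IARS, while the FARSA ratio is lowest in RBM5 OE.

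Other genes of the pathway are given from listed sets. Of 37 ATF4 targets that are not synthetases, 29 fell and 0 rose in RBM5 KO (median −1.14, beside 1.67% of all genes that fell), and 25 rose and 2 fell in RBM5 OE (median 0.44, beside 19.8% of all genes that rose), both against CTRL. The RBM5 KO count was 5 when CTRL replicate 1 was left out, 9 with CTRL replicate 2 left out, 15 with RBM5 KO replicate 3 left out and 18 with RBM5 KO replicate 2 left out. The falls in RBM5 KO with the smallest p were SLC6A9, a glycine transporter (−3.05, adjusted p = 0.00221 in the edgeR fit), ALDH1L2, an enzyme of mitochondrial folate metabolism (−2.23, adjusted p = 0.00247), and ASNS, asparagine synthetase (−2.05, adjusted p = 0.00454). In RBM5 OE, STC2, a secreted glycoprotein (1.93, adjusted p = 2.93e-06), DDIT3, the transcription factor CHOP (2.12, adjusted p = 4.75e-06), and the transcription factor ATF5 (1.16, adjusted p = 2.16e-05) rose. Among the 25 that rose, NUPR1 had 1.89, 1.40 and 0.34 CPM in the CTRL libraries. It passed the filter only through its level in RBM5 OE, so its rise carries no weight in the count. The 2 that fell in RBM5 OE, ALDH18A1 (−0.90, adjusted p = 7.39e-06) and PYCR1, make proline. The 7 cytosolic synthetases with the promoter element had a median of 0.0016 in RBM5 OE against CTRL. Of these 7, 1 was called (IARS, lower), beside 40.1% of all genes called in either direction. YARS2, the mitochondrial gene with the element, fell as well (−0.76, adjusted p = 7.56e-05 in the edgeR fit).

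ATF4 mRNA had 698, 679 and 696 CPM in RBM5 OE, 504, 393 and 405 CPM in RBM5 KO and 666, 650 and 553 CPM in CTRL. RBM5 KO did not overlap CTRL, and ATF4 was not called there (−0.52, standard error 0.118, adjusted p = 0.0571) or in RBM5 OE (0.15, adjusted p = 0.121), while RBM5 OE exceeded RBM5 KO (0.67, adjusted p = 0.000349). Of 16 regulators of the integrated stress response 0 were called in RBM5 KO, near the 2.51% of all genes called there. In RBM5 OE 8 fell and 2 rose, beside 20.2% of all genes that fell and 19.8% that rose. The 8 included all 5 subunits of the exchange factor eIF2B, among them EIF2B1 (−0.55, adjusted p = 0.000129) and EIF2B4 (−0.73, adjusted p = 0.000134), and GCN1L1 (−0.58, adjusted p = 5.64e-05), which acts with GCN2. The 2 that rose were PPP1R15A, which directs dephosphorylation of eIF2 (1.27, adjusted p = 0.000426), and EIF2AK2, the kinase PKR (0.30, adjusted p = 0.0209).

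Of 13 genes of mitochondrial translation, 0 were called in RBM5 KO (median −0.03), near the 2.51% of all genes called there. In RBM5 OE 5 fell (38.5%, beside 20.2% of all genes) and 1 rose (7.69%, beside 19.8%), with a median of −0.19. In either direction 46.2% were called, close to the 40.1% of all genes. The falls with the smallest p were TSFM, an elongation factor (−0.87, adjusted p = 1.53e-05), MTFMT, which formylates the initiator tRNA (−1.03, adjusted p = 0.000329), and GFM2, a ribosome recycling factor (−0.47, adjusted p = 0.00137). The rise was MTIF2, an initiation factor (0.34, adjusted p = 0.00593). Of 14 genes of cytosolic tRNA handling, 0 were called in RBM5 KO, again near the 2.51% of all genes. In RBM5 OE 5 fell (35.7%) and 2 rose (14.3%), beside the same 20.2% and 19.8% of all genes, and 40.1% called in either direction. ELAC2, which trims tRNA 3′ ends, fell by 0.67 (adjusted p = 5.64e-05), and TRNT1, which adds the CCA end, fell by 0.68 (adjusted p = 0.000586). SEPSECS, which makes selenocysteinyl-tRNA, rose by 0.81 (adjusted p = 0.000113).

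Because interferon gamma induces WARS in many human cells, 13 interferon gamma-induced genes were read beside it. Of the 9 tested in RBM5 KO 1 fell, beside 1.67% of all genes that fell. It was the transcription factor IRF1, with 19.4, 16.6 and 18.4 CPM in RBM5 KO and 29.7, 31.1 and 33.4 CPM in CTRL (−0.79, adjusted p = 0.00707). Of the 10 tested in RBM5 OE 5 rose and 1 fell, beside 19.8% of all genes that rose. GBP4 (4.74, adjusted p = 5.40e-06), CXCL10 (5.02, adjusted p = 7.06e-06) and IRF1 (0.61, adjusted p = 0.00012) rose, and SOCS1 fell (−0.51, adjusted p = 0.00908). GBP4 averaged 2.87 CPM in RBM5 OE and 0.10 CPM in CTRL, and was too low to be tested in RBM5 KO. It passed the filter only through its level in RBM5 OE, so its rise carries no weight in the count. CXCL10 averaged 25.3 CPM in RBM5 OE and 0.78 CPM in CTRL, with 0.038 CPM in CTRL replicate 3. In RBM5 OE against CTRL, CXCL10 also passed the filter only through its level in RBM5 OE. Its rise likewise carries no weight in the count. The part of any of these genes in the level of WARS was not tested.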

How the data were processed

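RNA was measured in 9 libraries of MOLM13 (3 per group). According to the deposited record, the authors depleted ribosomal RNA and used Trim Galore for trimming, STAR 2.7.1a for alignment to hg19 (GRCh37.p13), GATK 4.1.2.0 to mark duplicates and RSEM for gene quantification without strand. The expected counts deposited by the authors are RSEM estimates per gene, unscaled. The TPM values deposited by the authors are scaled by transcript length and library. The annotation version of the RSEM counts is not given in the sources used here, and the 92 spike-in entries, all at 0, were not used.

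Expected counts were rounded to whole counts and tested in R 4.3.3 with edgeR 4.0.16 (filterByExpr with a minimum count of 10, TMM, quasi-likelihood test), with p-values adjusted by Benjamini-Hochberg across every gene in the fit and calls at 0.05. RBM5 KO and RBM5 OE were each fitted with CTRL in 6 libraries, and RBM5 OE with RBM5 KO in all 9. The standard error is the log2 fold change divided by the square root of F. Alternatives used DESeq2 1.42.0, limma 3.58.1 (voom, log2(TPM + 1), log2(TPM + 0.1)), other scalings and filters, the replicate block and leaving out libraries. Tested on simulated data for RBM5 KO against CTRL with 14218 genes, 94% of log2 changes of −1 were recovered. All 39 genes were accounted for, with full statistics for called genes, at most the 10 with the smallest p per comparison, and up to 4 called genes with the smallest p per listed set. Single genes that moved against their set were named after their values were seen. Members and lists were chosen with earlier results of these data known. Overlaps come from a GRCh37 annotation, promoters from RefSeq (GRCh38.p14). Plots used Python 3.11.15 and matplotlib 3.10.9.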

Additional observations from a re-analysis of the deposited data

How the results depend on the processing

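Of 39 genes in 3 comparisons, no called direction reversed under any alternative. Leaving out 1 library gave 2 to 12 cytosolic genes called in RBM5 KO against CTRL (2 without CTRL replicate 1, 4 without CTRL replicate 2, 5 without RBM5 KO replicate 3) and 5 to 12 in RBM5 OE against CTRL (5 without RBM5 OE replicate 2). Mitochondrial genes called in RBM5 OE numbered 9 to 12 without 1 library, and 7 with limma on log2(TPM + 1). Without both CTRL replicate 3 and RBM5 KO replicate 1, 2 mitochondrial genes were called in RBM5 KO. In RBM5 OE against RBM5 KO the cytosolic count was 13 or 14 and the mitochondrial count 8 to 10 under every alternative. With medians over members instead of means, the cytosolic minus mitochondrial level differed by −0.55 between RBM5 KO and CTRL (−0.41 by means), 0.45 between RBM5 OE and CTRL (0.23) and 1.00 between RBM5 OE and RBM5 KO (0.64). Without WARS, chosen after seeing the data, the means differed by −0.36, 0.20 and 0.56 in these comparisons. The cause of these differences was not tested. Under library totals the median of all genes in RBM5 OE against CTRL was 0.050, against 0.013 under TMM.

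Same-numbered RBM5 KO and CTRL libraries had correlations of deviations of −0.29, 0.12 and −0.35, so the numbers do not pair the libraries. With the replicate number as a block, 8 cytosolic and 0 mitochondrial genes were called in RBM5 KO, 9 and 10 in RBM5 OE, and 13 and 9 in RBM5 OE against RBM5 KO. Leaving out both libraries was not run for RBM5 OE against CTRL, which holds only 1 of them. With 3 replicates per group and totals of 25522936 to 27871975 counts, the spread between replicates limits the calls. The p-values set each group difference against the spread between these cultures.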
